A study of Mus musculus with 4 samples.

Results

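Myh7-high spots are the places on 4 mouse heart sections where the slow ventricular myosin heavy chain Myh7 reached 3000 or more CPM (counts per 1000000 UMIs, or unique molecular identifiers, of the spot). A spot is a small capture area that can hold several cells or parts of cells. A spot also had to carry 5000 or more UMIs and under 0.4% of them on Arg1 and Mmp12, 2 genes that mark a macrophage-rich niche in these sections. Members were thus chosen by measured values, those of Myh7, Arg1, Mmp12 and total UMIs. A total of 997 of 10744 spots under tissue met the rule. They were compared with 5527 spots of the same sections, called Myh7-low here, with Myh6 at 1% or more of UMIs, Myh7 under 3000 CPM and the same UMI minimum and Arg1 and Mmp12 limit.

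The sections were 5 µm slices of formalin-fixed, paraffin-embedded hearts, profiled on Visium slides. All mice were wild type FVB/NJ, immunized with a peptide of MyHCα (the alpha cardiac myosin heavy chain, the product of Myh6), and all received antibodies against PD-1 and CTLA-4, a pair of immune checkpoint inhibitors (ICIs). In 2 sections, labelled as having developed myocarditis, the ICIs were given alone. In the other 2, labelled as rescued, an antibody that neutralizes IL-17A was given as well. No unimmunized or untreated heart was analysed here, ages and times are not given in the sources used here, and no label says whether replicates were different animals. The spread that p-values are set against is therefore that of the sections, which may be technical. Each group has 1 section of batch 1 and 1 of batch 2, numbered here as replicates 1 and 2.

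Adult mouse ventricle runs mainly on Myh6, the fast alpha myosin, while the fetal heart relies on Myh7. Myh7 returns in the adult when the muscle is overloaded, inflamed or short of thyroid hormone, usually together with other fetal or stretch-responsive genes such as Nppa, Acta1 and Ankrd1, and with less expression of genes for calcium cycling and fat oxidation. The switch is known to be patchy, with Myh7-positive cardiomyocytes often lying near scar. Spots cannot show whether Myh7 changed per cell or per share of cells, and fewer cardiomyocytes cannot be told apart from less RNA per cardiomyocyte.

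Myh7 and Myh6 are neighbours on mouse chromosome 14 (GRCm38.p6 14:54970684-54994626 and 14:54941921-54968017, both on the minus strand) and encode closely related proteins. No source used here names the probe set, so counts shared between the pair could not be examined. Their promoters are shown with those of the stress genes Acta1 and Ankrd1, because MCAT elements (CATTCC, bound by TEAD factors) are a classic feature of such promoters. Each sequence is the 250 bases before a RefSeq start on the gene's own strand, GRCm38.p6, with CATTCC, or its complement GGAATG, in capitals:
Myh7, chr14:54994627-54994876, minus strand: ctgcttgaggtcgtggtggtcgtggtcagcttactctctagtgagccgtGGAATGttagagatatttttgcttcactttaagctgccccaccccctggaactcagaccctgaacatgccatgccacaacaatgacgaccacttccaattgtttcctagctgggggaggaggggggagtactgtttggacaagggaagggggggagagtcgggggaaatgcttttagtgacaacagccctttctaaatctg
Myh6, chr14:54966608-54966857, minus strand: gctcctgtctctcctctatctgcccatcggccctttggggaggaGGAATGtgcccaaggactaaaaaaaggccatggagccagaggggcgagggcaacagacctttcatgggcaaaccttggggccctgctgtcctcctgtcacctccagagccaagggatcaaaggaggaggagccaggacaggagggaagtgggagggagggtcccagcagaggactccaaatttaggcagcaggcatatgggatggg
Acta1, chr8:123894776-123895025, minus strand: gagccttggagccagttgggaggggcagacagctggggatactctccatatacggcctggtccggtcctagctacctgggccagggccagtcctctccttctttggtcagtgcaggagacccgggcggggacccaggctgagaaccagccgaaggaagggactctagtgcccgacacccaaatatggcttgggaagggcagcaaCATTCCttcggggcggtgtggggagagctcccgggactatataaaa
Ankrd1, chr19:36119845-36120094, minus strand: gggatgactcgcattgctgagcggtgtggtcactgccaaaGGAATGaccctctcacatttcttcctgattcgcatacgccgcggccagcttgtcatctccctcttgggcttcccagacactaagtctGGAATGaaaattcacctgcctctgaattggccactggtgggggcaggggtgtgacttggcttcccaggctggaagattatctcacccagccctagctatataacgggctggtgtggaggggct
The letters stood 201 to 196 bases before the start in Myh7, 206 to 201 in Myh6 and 46 to 41 in Acta1. Ankrd1 held them at 210 to 205 and again at 123 to 118 bases before its start. Each start is that of the window shown. The Myh6 window lies inside the Myh6 interval given above, so its start is not the outer end of that interval. Both myosins carried the motif in the window shown. Myh7 had 2 windows, and where a gene had more than 1, the one with the most motif sites was taken. Across 27025 genes with such a window, 3880 (14.4%) held CATTCC on either strand in any of their windows. The windows of Casq1, Nppa and Synpo2l held none, and that of Nppb held 1.

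The spots were cardiac muscle by their markers. Over the 997 spots the thin-filament gene Tnnt2 had 294942 UMIs, the ventricular light chain Myl2 had 174573 and the calcium release channel Ryr2 had 25979. The atrial markers Myl4, Myl7, Sln and Bmp10 had 98, 16, 8 and 3 UMIs, the pacemaker channel Hcn4 had 19, and the fast skeletal muscle genes Myh1, Myh4 and Tnni2 had 6, 3 and 31. Other cells were present too: the fibroblast genes Dcn and Pdgfra had 27439 and 1556 UMIs, the macrophage gene Cd68 had 1914, the neutrophil gene S100a9 had 1955 and the T cell gene Cd3e had 191. They were ventricular muscle with other cells in the same spots. The word "stressed" in the working name was examined gene by gene in the class comparison.

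The 4 sections differed widely in how many Myh7-high spots they held. There were 137 and 804 with ICIs alone (replicates 1 and 2) and 19 and 37 with the IL-17A antibody. As a share of spots with 5000 or more UMIs, this was 5.50% (95% Wilson interval 4.67 to 6.46) and 26.4% (24.8 to 28.0) with ICIs alone, and 0.760% (0.487 to 1.18) and 1.45% (1.06 to 2.00) with the antibody. The groups did not overlap, but ICI-alone replicate 2 alone gave 804 of the 997. Group means were 15.9% ± 14.8 and 1.11% ± 0.489 (SD, n = 2 sections each), and the exact two-sided permutation p was 0.333, the smallest that 2 against 2 allows. Intervals cover counting error only. The share is set by the rule and is given as a description.

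The order of the sections was the same with every spot thinned to 5000 UMIs, at 6.86%, 26.5%, 1.00% and 1.77%. Other thresholds kept it, with 14.0%, 36%, 1.64% and 3.06% at 2000 CPM and 1.08%, 13.7%, 0.0800% and 0.196% at 5000 CPM. Total UMIs per section were 73167202 and 66255242 under ICIs alone and 47882576 and 33005923 under the antibody. Median UMIs per Myh7-high spot were 26745, 15940.5, 18953 and 13281 in the same order, beside 23146, 15350, 18267 and 11863 in Myh7-low spots, so the classes were of similar depth within each section. Barcodes mark grid positions, and 1670 were in use in all 4 sections.

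Within the rule, Myh7 ranged from the threshold to 24183 CPM. Median Myh7 in the Myh7-high spots was 3849 and 5150 CPM under ICIs alone and 3736 and 3815 under the antibody. In ICI-alone replicate 2, 387 spots lay at 3000 to 5000 CPM, 325 at 5000 to 10000 and 92 at 10000 or more. No antibody section had a spot in that top range, and ICI-alone replicate 1 had 4. Just inside the threshold, at 3000 to 3500 CPM, lay 48, 132, 9 and 11 spots, and just outside, at 2500 to 3000 CPM, lay 76, 118, 9 and 15, so the threshold cut a continuous range. Median Myh7 in the comparison spots was 838 and 1547 CPM with ICIs alone but 56.3 and 92.2 CPM with the antibody, so Myh7-low spots of the ICI-alone sections were not at the antibody sections' level.

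Myh7-high spots were not simply spots without Myh6. Median Myh6 was 1.35% and 1.08% of UMIs under ICIs alone and 2.04% and 1.32% under the antibody, against 2.04%, 1.69%, 2.70% and 2.16% in the comparison spots, whose rule asked for 1% or more. Of the Myh7-high spots, 108 (78.8%), 428 (53.2%), 15 (78.9%) and 25 (67.6%) reached that 1% as well. The rest, most of them in ICI-alone replicate 2, were poor in Myh6. The difference in the Myh6 minimum between the classes therefore bears on the comparisons of other genes, and values for Myh7-high spots that met it are given beside them.

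The spots formed patches. Of the grid neighbours of a Myh7-high spot, 43.1% and 77.2% under ICIs alone and 29.0% and 44.3% under the antibody were Myh7-high themselves. For neighbours of Myh7-low spots the shares were 5.89%, 23.7%, 0.536% and 0.516%. The largest patch held 430 of the 804 spots in ICI-alone replicate 2, 18 of 137 in ICI-alone replicate 1, and 5 of 19 and 12 of 37 with the antibody. Single isolated spots numbered 22, 16, 5 and 6. In the authors' deposited table of spatial autocorrelation over all tissue spots, Myh7 had a Moran's I of 0.752 and 0.832 under ICIs alone and 0.527 and 0.635 under the antibody, where values near 1 mean smooth patches.

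**Figure D1:**
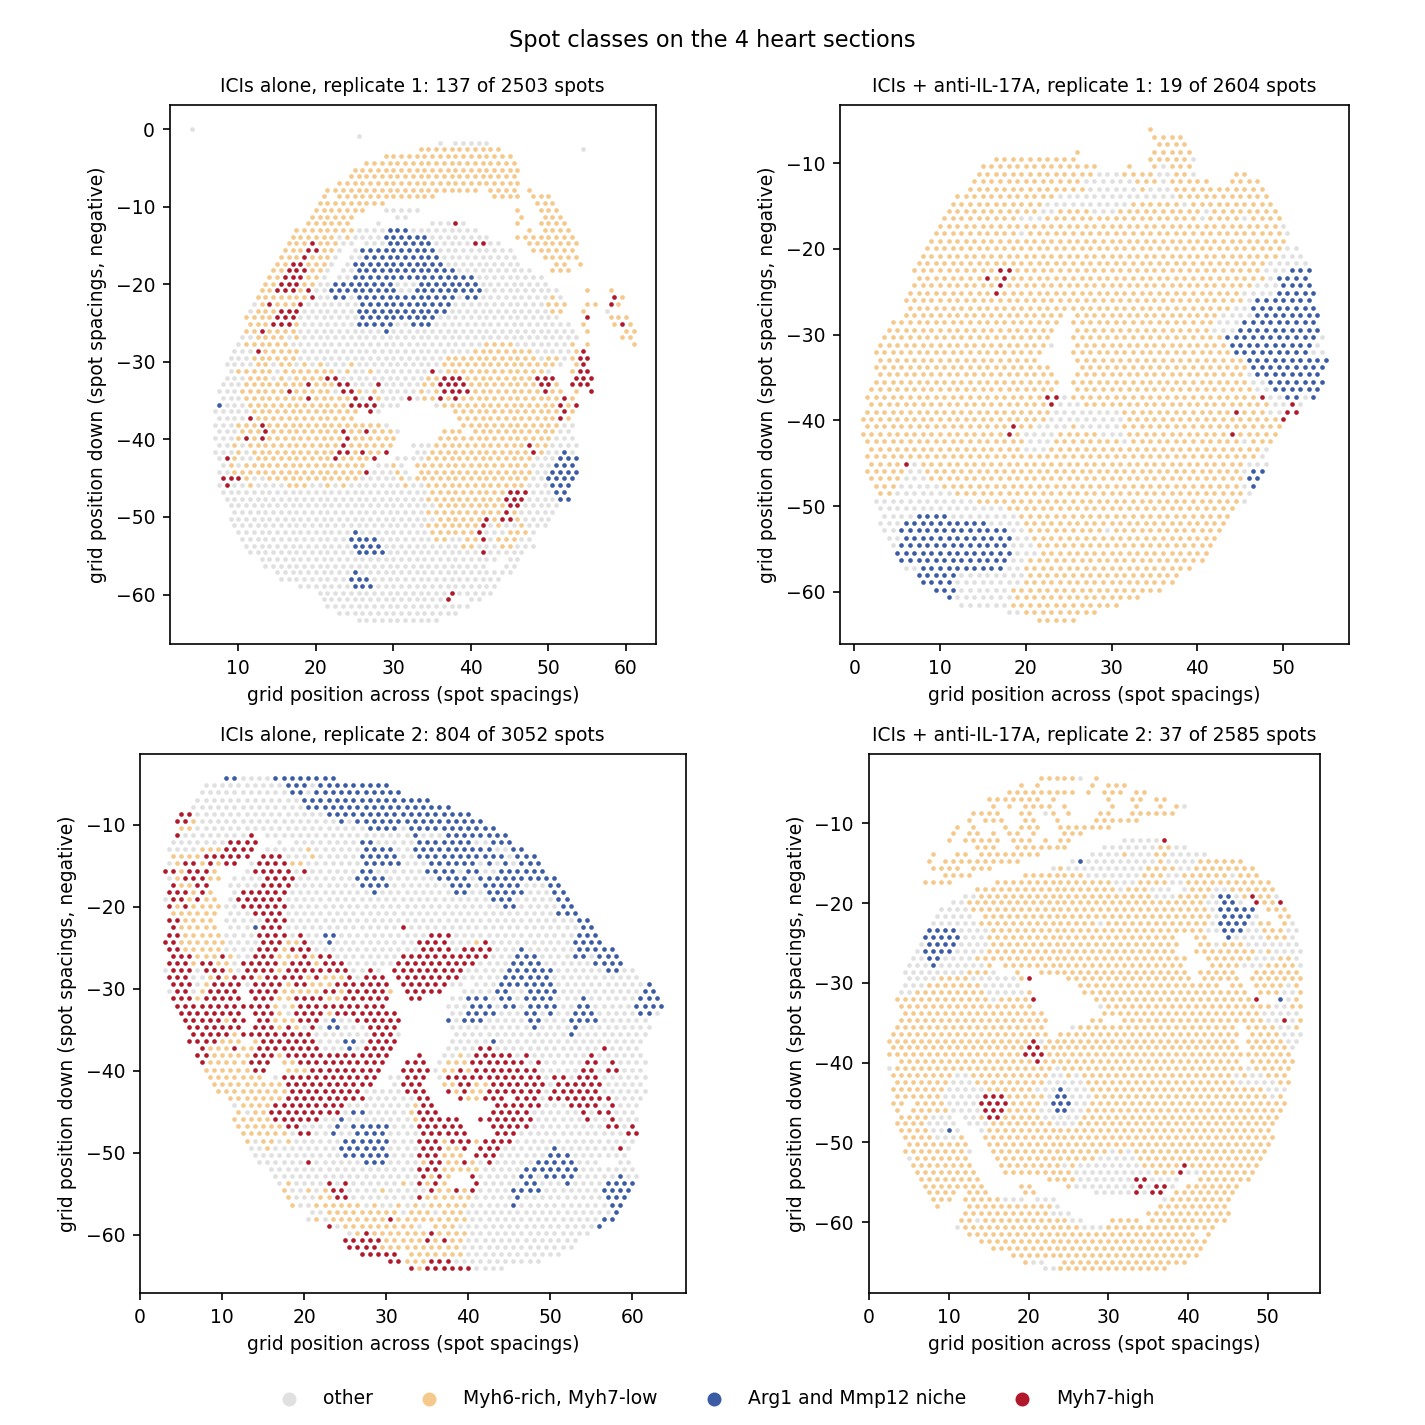
Spots under tissue of the 4 sections at their grid positions in spot spacings, coloured by class: Myh7-high, Myh7-low (Myh6-rich), the Arg1 and Mmp12 niche, and other spots. Myh7-high spots cover broad areas in ICI-alone replicate 2 (804 spots) and form small scattered patches in ICI-alone replicate 1 (137) and in the antibody sections (19 and 37).

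By mean distance, Myh7-high spots lay nearer to the macrophage niche than Myh7-low spots in every section, by a small margin. The niche is the set of spots with Arg1 and Mmp12 at 0.4% or more of UMIs (213 and 470 spots with ICIs alone, 239 and 52 with the antibody), which the rule leaves out of the Myh7-high class. It was nearly free of high Myh7 itself: 0, 0, 1 and 0 of its spots reached 3000 CPM. Mean distance to it, in steps on the spot grid, was 9.12 and 6.98 for Myh7-high spots under ICIs alone and 15.0 and 9.19 under the antibody. For Myh7-low spots it was 10.1, 9.11, 15.6 and 10.8. The difference averaged -1.32 steps (SD 0.694, n = 4 sections), nearer in 4 of 4 sections, with an exact sign-flip p of 0.13, the smallest that 4 sections allow. Without the spots on the tissue margin it was -1.01 steps (SD 2.23), nearer in 3 of 4 sections, exact p = 0.375; in antibody replicate 1 it turned to 2.22 steps farther. Away from the margin the sections therefore did not share a direction. The Myh6 minimum of the Myh7-low class also bears on distance, because spots beside the niche held little Myh6. Median distance of Myh7-high spots that met that minimum was 9, 7, 17 and 7 steps, against 10, 9, 14 and 10 in Myh7-low spots. With the minimum in both classes, antibody replicate 1 (15 such spots) was thus farther. These medians were not tested.

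Counted in rings around the niche, the share of Myh7-high spots and the myosin ratio ran in different ways. In ICI-alone replicate 2 the share was 6.28% at 1 to 2 steps, 27.1% at 3 to 4, and 38.1% to 49.0% in the rings from 5 steps outward. ICI-alone replicate 1 had 0 of 228 spots at 1 to 2 steps, which allows a share of up to 1.32%, and 6.62% to 8.64% in the rings from 5 steps outward. With the antibody no ring exceeded 3.03%. Against this, Myh7 UMIs per 100 Myh6 UMIs were highest beside the niche in every section and lower farther out: 21.4 at 1 to 2 steps and 7.63 at 11 or more in ICI-alone replicate 1, 55.9 and 23.7 in ICI-alone replicate 2, 10.0 and 0.623 in antibody replicate 1, and 6.61 and 1.27 in antibody replicate 2. The ring nearest the niche held little muscle transcript of either kind, with Myh6 at 0.156% and 0.114% of UMIs with ICIs alone against 1.54% and 1.51% at 11 or more steps. The ratio is thus taken there over few Myh6 UMIs, and these values are a description with no test.

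**Figure D2:**
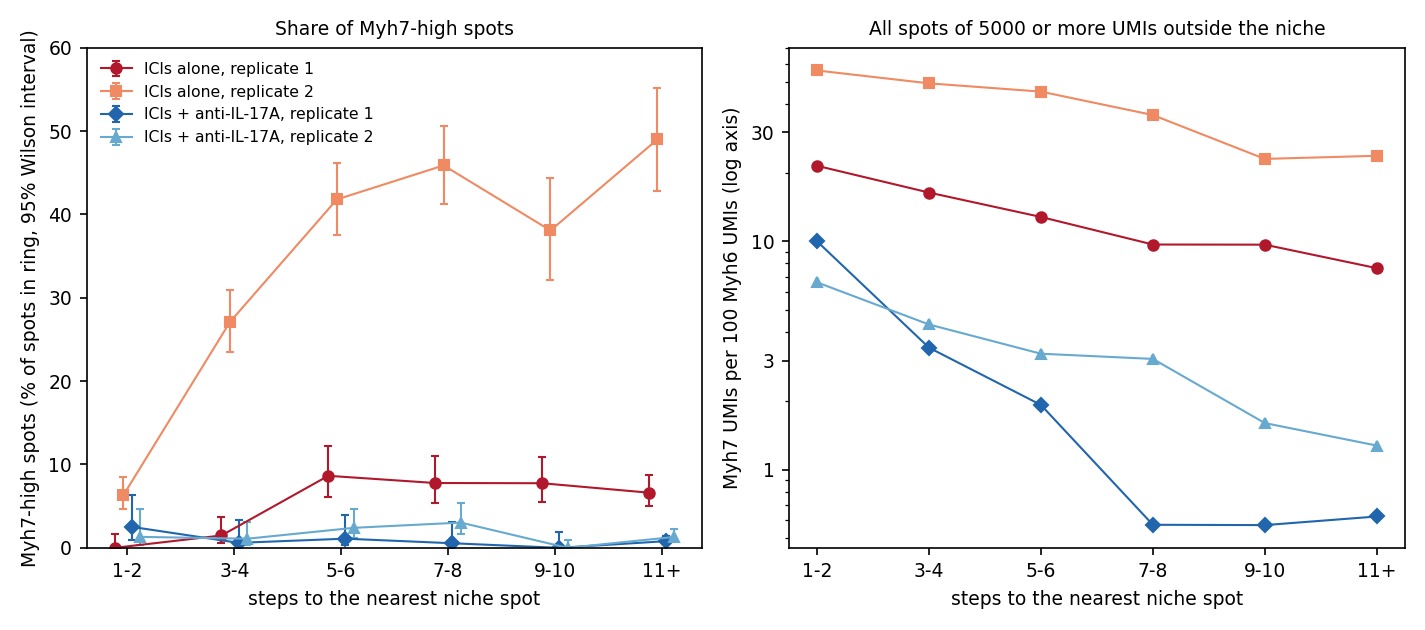
Left, share of Myh7-high spots (percent of spots with 5000 or more UMIs, bars are 95% Wilson intervals) by steps to the nearest niche spot, for each section. Right, Myh7 UMIs per 100 Myh6 UMIs in the same rings on a log axis, which fall from 55.9 to 23.7 in ICI-alone replicate 2 and from 10.0 to 0.623 in antibody replicate 1.

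Other genes were then compared between Myh7-high and Myh7-low spots, with the UMIs of each class summed per section, so that each section gave 1 pair of sums. In edgeR's quasi-likelihood test with section as a block, 2354 of 12572 genes (18.7%) passed a Benjamini-Hochberg adjusted p of 0.05: 1152 rose (9.16%) and 1202 fell (9.56%). Fetal, matrix and immune genes were higher, and genes of contraction, calcium handling, ion channels and mitochondrial energy supply were lower. With Myh6 at 1% or more required in both classes, 80 of 11866 genes (0.674%) passed, 46 up (0.388%) and 34 down (0.287%), and 78 of those 80 had also been called in the same direction before. Of the 2354 genes, 2315 were measured in that fit, and 2205 of these (95.25%) kept their sign. The fit held 576 Myh7-high spots, with only 15 and 25 in the antibody sections. The part of fewer spots in the loss of calls was not tested. With the Myh6 minimum dropped from the comparison spots, so that fibrotic and inflamed spots entered them, 13 of 14079 genes (0.0923%) passed, of which 1 rose, and only 33.73% of the 2354 genes kept their sign. Scaled by library size alone, 1749 rose and 696 fell. The number of calls thus depended strongly on the Myh6 minimum. The fit with the minimum in both classes is called Myh6 matched here, and its values are given beside each group. Matched means the same minimum and not the same level. In Myh7-high spots that met it, Myh6 was at 15640 and 16870 CPM under ICIs alone and 23930 and 15790 under the antibody (raw sums). In Myh7-low spots it was at 19500, 17500, 27290 and 21460 CPM, higher in every section.

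**Figure D3:**
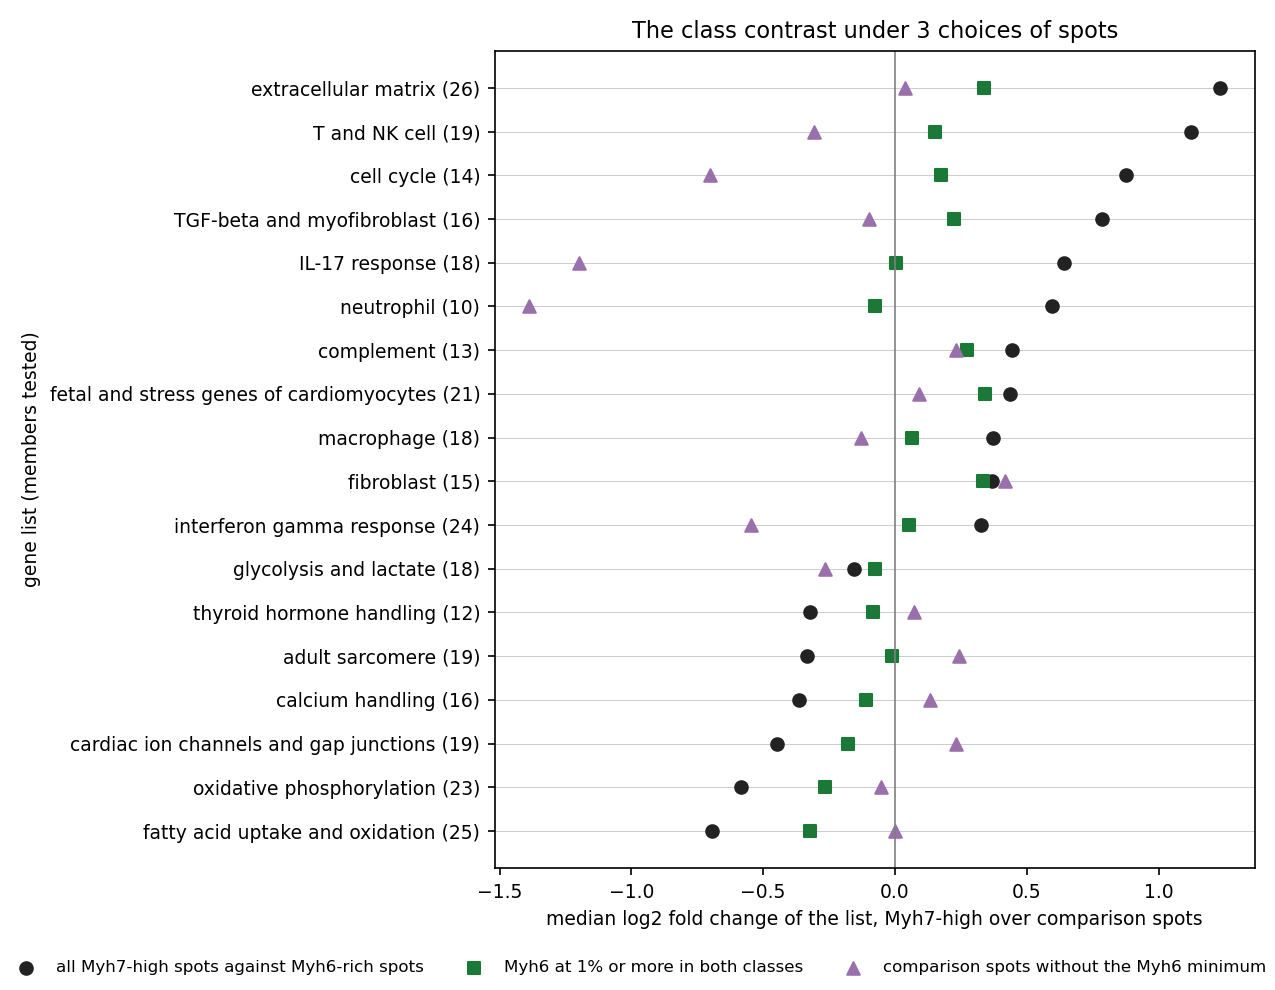
Median log2 fold change of the tested members of 18 gene lists, Myh7-high over comparison spots (number tested in brackets), for all Myh7-high spots, with Myh6 at 1% or more in both classes, and with no Myh6 minimum in the comparison spots. Extracellular matrix falls from 1.23 to 0.34 and 0.04 across the 3 choices, and fat oxidation moves from -0.69 to -0.32 and -0.00.

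Of 21 tested genes on the list of fetal and stress genes of cardiomyocytes, 12 rose and 2 fell, beside 9.16% of all genes rising. Their median log2 difference was 0.44 (all genes -0.00072). With Myh6 matched, 6 rose (Acta1, Ankrd1, Fhl1, Mybpc2, Enah and Ccn2) and 1 fell (Myl4), with a median of 0.34, and with no Myh6 minimum none passed and the median was 0.09. The list therefore stayed on the higher side in all 3 choices, with fewer calls in each. Nppb, which encodes the natriuretic peptide BNP, had too few UMIs to be tested.

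Acta1, skeletal alpha-actin, which the fetal heart also uses, stood at 4024 and 1290 CPM (TMM-scaled) in Myh7-high spots under ICIs alone and at 2626 and 1490 under the antibody. In Myh7-low spots it was at 2347, 793, 1000 and 1224 CPM. It was higher in 4 of 4 sections, though the ranges overlapped between sections, and rose by 0.79 ± 0.13 on the log2 scale (SE, n = 4 pairs, edgeR adjusted p = 0.00026), or 0.98 with Myh6 matched (adjusted p = 1.0e-04). Ankrd1, a stretch-responsive ankyrin repeat protein of the sarcomere, was at 16970, 10790, 6447 and 13690 CPM against 11370, 10360, 4475 and 7737. That difference was small in ICI-alone replicate 2 and larger elsewhere, at 0.50 ± 0.13 (edgeR adjusted p = 0.011) and 0.62 with Myh6 matched (adjusted p = 0.0057).

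Casq1, the calsequestrin of fast skeletal muscle, which stores calcium in the sarcoplasmic reticulum, passed under 21 of 22 alternative settings. It falls outside the rule by which other genes are named and was chosen after its values were seen. It measured 290, 151, 476 and 358 CPM in Myh7-high spots and 151, 68.9, 167 and 195 CPM in Myh7-low spots, higher in every section. Its log2 difference was 1.10 ± 0.10 (edgeR adjusted p = 1.5e-07), 1.42 with Myh6 matched (adjusted p = 5.6e-10) and 1.43 with no Myh6 minimum (adjusted p = 0.045), where it was the single gene that rose. Skeletal muscle itself was at or near 0 by Myh1, Myh4 and Tnni2, and of 7 tested skeletal muscle genes 0 rose and 1 fell.

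Mybpc2, the fast skeletal form of myosin binding protein C, followed at 155, 118, 144 and 147 CPM against 88.9, 99.7, 37.9 and 47.4. Its log2 difference was 0.89 (edgeR adjusted p = 0.00045) and 0.97 with Myh6 matched (adjusted p = 0.0035). Synpo2l, a Z-disc protein that binds actin, was at 700, 626, 362 and 519 CPM against 471, 326, 181 and 262, higher in 4 of 4 sections by 0.86 ± 0.10 (edgeR adjusted p = 3.6e-06) and 0.81 with Myh6 matched (adjusted p = 8.4e-05). Fhl1, a LIM protein of the sarcomere linked to hypertrophy, rose by 0.48 (edgeR adjusted p = 0.0011) and 0.42 with Myh6 matched (adjusted p = 0.040). Mybpc2, Fhl1 and Enah were singled out after their values were seen, though all stand on the fetal and stress list. Flnc, filamin C of the Z-disc, did not pass, at 0.14 (edgeR adjusted p = 0.38).

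Nppa, which encodes atrial natriuretic peptide, was uneven across the sections. In Myh7-high spots it was at 4099 and 7965 CPM under ICIs alone and 1700 and 2711 under the antibody. In Myh7-low spots it was at 1095, 1862, 243 and 7027 CPM, the last of these from antibody replicate 2, where 161 comparison spots carried over 1% of UMIs on the atrial genes Myl4, Myl7, Sln and Bmp10. No Myh7-high spot did. Nppa was thus higher in 3 of 4 sections, by 1.49 ± 0.40 (edgeR adjusted p = 0.010), and by 2.32 (adjusted p = 8.9e-10) once the atrial-rich spots were left out. With Myh6 matched the difference was 1.23 and did not pass (adjusted p = 0.088), and without antibody replicate 1 it was 1.00 (adjusted p = 0.16).

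**Figure D4:**
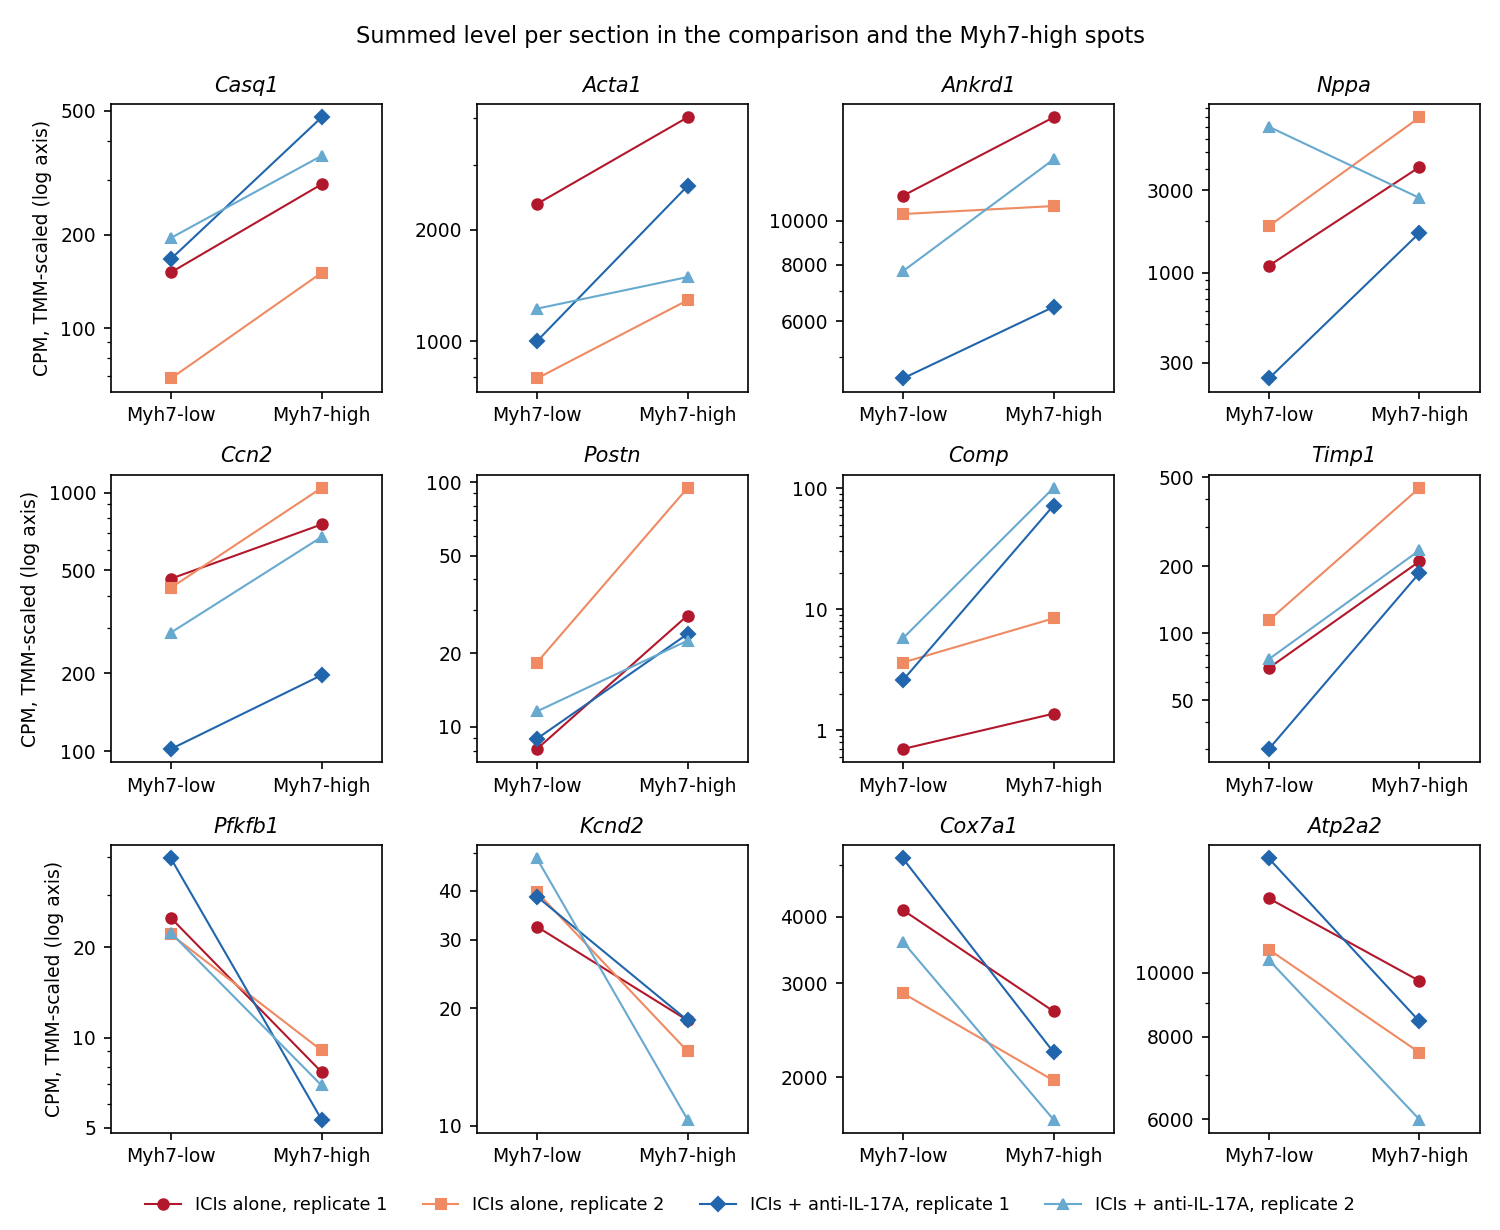
Level of 12 genes in the summed Myh7-low and Myh7-high spots of each section (TMM-scaled CPM, log axis), with 1 line per section. Casq1, Acta1 and Ccn2 climb and Pfkfb1, Kcnd2 and Cox7a1 drop in all 4 sections, and Nppa drops in antibody replicate 2 alone.

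Contractile genes were lower as a group until Myh6 was matched. Of 19 tested sarcomere genes 10 fell and 0 rose (median -0.33), beside 9.56% of all genes falling. With Myh6 matched 0 moved (median -0.01), and with no Myh6 minimum the median was 0.24. Tnni3, cardiac troponin I, was at 3618, 3210, 3217 and 2628 CPM against 5026, 4386, 6220 and 5156, and fell by 0.71 (edgeR adjusted p = 0.00031), but by 0.32 with Myh6 matched (adjusted p = 0.20). Tnnt2, cardiac troponin T, was 18340, 16220, 9736 and 10260 CPM against 20550, 18460, 16480 and 13350 and did not pass (-0.37, edgeR adjusted p = 0.058).

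Calcium-handling genes behaved likewise, with 11 of 16 falling (median -0.36) and 0 with Myh6 matched (median -0.11). Over all genes 9.56% fell, and 0.287% did with Myh6 matched. Atp2a2, which encodes the SERCA2 pump that refills the sarcoplasmic reticulum, was at 9722, 7571, 8440 and 5992 CPM against 12970, 10850, 14910 and 10460, lower in 4 of 4 sections (-0.64 ± 0.13, edgeR adjusted p = 0.00089). With Myh6 matched it was -0.27 (adjusted p = 0.34). Its regulator Pln and the release channel Ryr2 were at -0.57 and -0.51 (edgeR adjusted p = 0.0021 and 0.0023) and at -0.21 and -0.13 with Myh6 matched, where neither passed.

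Among 19 tested cardiac ion channel and gap junction genes 10 fell (median -0.45), beside 9.56% of all genes. With Myh6 matched 2 of 18 did, beside 0.287% of all genes. Those 2 were Kcnd2, the pore subunit of the transient outward potassium current, and Kcnj3, a channel subunit strongest in atria. Kcnd2 was at 18.6, 15.5, 18.6 and 10.4 CPM against 32.4, 39.7, 38.7 and 48.4, with no overlap between classes in any section (-1.20 ± 0.14, edgeR adjusted p = 8.2e-06, and -0.71 with Myh6 matched, adjusted p = 0.0066). Scn4b, a sodium channel beta subunit outside that list, was at 30.4, 13.6, 29.3 and 24.2 CPM against 51.5, 34.2, 79.2 and 53.2 (-1.09, edgeR adjusted p = 5.4e-06, and -0.65 matched, adjusted p = 0.0066). Kcnj2, which carries the inward rectifier current, fell by 0.77 (edgeR adjusted p = 2.8e-05) and was at -0.34 with Myh6 matched (adjusted p = 0.19).

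Genes of fuel use showed the broadest decline. Of 25 fat uptake and oxidation genes 24 fell and 1 rose (median -0.69), and all 23 tested genes of oxidative phosphorylation fell (median -0.58), beside 9.56% of all genes. With Myh6 matched 2 and 1 fell, at medians of -0.32 and -0.27, and with no minimum the medians were -0.00 and -0.05. Pfkfb1, an enzyme that sets the level of fructose 2,6-bisphosphate, had the largest fall that held with Myh6 matched outside the atrial genes. It was at 7.67, 9.06, 5.32 and 6.92 CPM in Myh7-high spots and 25.1, 22.1, 39.7 and 22.4 in Myh7-low spots, a drop in every section (-1.52 ± 0.16, edgeR adjusted p = 2.0e-06, and -1.07 matched, adjusted p = 0.0027).

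Ogdhl, a relative of the 2-oxoglutarate dehydrogenase of the citric acid cycle, was at 42.2, 34.9, 18.6 and 17.3 CPM against 88.9, 68.0, 103 and 73.9 (-1.18, edgeR adjusted p = 2.7e-06, and -0.71 matched, adjusted p = 0.0056). Cox7a1, a heart and muscle subunit of cytochrome oxidase, was at 2659, 1974, 2230 and 1668 CPM against 4114, 2875, 5137 and 3587. Eno3, muscle enolase, was at 1093, 1132, 1118 and 566 CPM against 1771, 1605, 2773 and 1711. Both fell, by 0.86 and 1.00, and by 0.47 and 0.57 with Myh6 matched (edgeR adjusted p = 0.031 and 0.023). Pdk4, the kinase that diverts pyruvate from oxidation, fell by 0.85 (edgeR adjusted p = 7.4e-06) and was at -0.38 matched (adjusted p = 0.080). Slc16a3, a lactate exporter of glycolytic cells, rose by 1.22 (edgeR adjusted p = 9.9e-06), but was at 0.31 matched and -1.19 with no Myh6 minimum.

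Thyroid hormone normally favours Myh6 over Myh7, so its handling genes were examined. Of 12 tested, 2 rose and 6 fell (median -0.32), beside 9.16% of all genes rising and 9.56% falling. Dio3, the enzyme that inactivates thyroid hormone, was at 6.30, 33.3, 2.66 and 1.73 CPM against 2.52, 5.98, 0.747 and 0.983 (1.98 ± 0.25, edgeR adjusted p = 1.3e-05). It was at 0.09 with Myh6 matched (adjusted p = 1.0) and -1.68 with no Myh6 minimum, so its rise went with Myh6-poor spots. Thrsp, a thyroid hormone-responsive gene, was at 14.0, 10.4, 26.6 and 17.3 CPM against 23.5, 23.7, 59.4 and 59.2, lower in 4 of 4 sections (-1.11 ± 0.14, edgeR adjusted p = 1.9e-05, and -0.90 matched, adjusted p = 0.0027). It was the 1 thyroid gene to fall with Myh6 matched.

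Matrix genes made the largest rise of any group, and part of it held with Myh6 matched. Of 26 tested 25 rose and 0 fell (median 1.23), and with Myh6 matched 6 rose (median 0.34). Over all genes 9.16% rose, and 0.388% did with Myh6 matched. Of 16 TGF-beta and myofibroblast genes 11 rose (median 0.79), and 2 of 15 matched. The fibroblast list rose less, 9 of 15 with a median of 0.37, and kept 4 and a median of 0.33. The summed level of its 15 genes was 3830 to 4909 CPM in Myh7-high and 2158 to 3988 CPM in Myh7-low spots, higher in 4 of 4 sections. Whether fibroblast RNA in the same spots made up these values was not tested.

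Comp, a cartilage and tendon matrix protein also made in fibrosis, stood out among them. It was at 1.37 and 8.40 CPM under ICIs alone and at 71.8 and 100.4 under the antibody, against 0.700, 3.62, 2.59 and 5.74 in Myh7-low spots. Its log2 difference was 3.45 ± 0.43 (edgeR adjusted p = 1.4e-05, and 3.86 matched, adjusted p = 0.00027), and the antibody sections held the high levels. Cilp, a matrix protein that restrains TGF-beta1, was at 28.5, 9.06, 71.8 and 41.5 CPM against 6.25, 4.71, 6.70 and 4.32 (2.42 ± 0.27, edgeR adjusted p = 3.6e-06, and 1.76 matched, adjusted p = 0.0035). Postn, periostin of activated fibroblasts, was at 28.5, 94.6, 23.9 and 22.5 CPM against 8.12, 18.3, 8.94 and 11.6 (1.93 ± 0.16, edgeR adjusted p = 7.0e-08, and 0.86 matched, adjusted p = 0.0088). Both were higher in every section.

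Col1a1, the alpha1 chain of collagen I, was at 1089, 3771, 750 and 711 CPM against 432, 1449, 197 and 281 (1.48, edgeR adjusted p = 5.1e-08, and 0.59 matched, adjusted p = 0.0096). With no Myh6 minimum it was at -0.02. Ccn2, a matricellular growth factor that cardiomyocytes also release, was at 753, 1042, 197 and 673 CPM against 465, 429, 102 and 288 (1.04 ± 0.11, edgeR adjusted p = 1.2e-06, and 0.81 matched, adjusted p = 0.00017). The growth factor Tgfb2 was at 114, 119, 42.6 and 60.6 CPM against 51.5, 55.1, 17.3 and 27.2, higher in every section (1.15 ± 0.09, edgeR adjusted p = 7.0e-08, and 0.72 matched, adjusted p = 0.0027). Timp1, the metalloproteinase inhibitor, and the matricellular protein Tnc did not hold. They rose by 1.87 and 2.30 (edgeR adjusted p = 2.2e-09 and 3.2e-09), yet were at 0.23 and 0.70 matched, where neither passed, and at -0.97 and -1.87 with no minimum.

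Immune genes were higher in Myh7-high spots mainly where the Myh6 minimum applied to the comparison spots alone. Of the tested genes 10 of 18 macrophage, 5 of 10 neutrophil, 11 of 19 T and NK cell, 13 of 18 IL-17 response, 14 of 24 interferon gamma response and 10 of 13 complement genes rose, and none fell. The share of all genes that rose was 9.16%. With Myh6 matched none of these genes rose, apart from 1 complement gene, and medians lay between -0.08 and 0.27. On the B and plasma cell and dendritic cell lists 1 of 6 and 2 of 9 rose, and 1 of 4 and 1 of 7 matched, beside 0.388% of all genes. Matched calls included the immunoglobulins Igkc and Igha (1.395 and 1.36, edgeR adjusted p = 0.0013 and 0.00084) and the integrin Itgax (1.06, adjusted p = 0.039). Raw Igkc in Myh6-rich Myh7-high spots was at 6.26, 158, 0 and 9.36 CPM. In Myh7-low spots it was at 1.69, 47.0, 4.23 and 31.9, so it was higher with ICIs alone only. With no Myh6 minimum the medians of the neutrophil and IL-17 response lists were -1.39 and -1.20. Cell cycle genes did the same, with 13 of 14 rising, then 0, at medians of 0.88, 0.17 and -0.70. By these medians, neutrophil, IL-17 response and cell cycle transcripts in Myh7-high spots lay above those of Myh6-rich muscle and below those of the wider comparison.

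Single genes show it. S100a9, a neutrophil alarmin, was at 56.7, 129, 2.66 and 12.1 CPM against 52.2, 62.5, 6.61 and 10.5, higher in 3 of 4 sections (0.58, edgeR adjusted p = 0.0073, and -0.07 matched). The T cell receptor subunit Cd3e was at 6.30, 9.14, 66.5 and 34.6 CPM against 4.52, 4.35, 10.2 and 12.9 (1.37, edgeR adjusted p = 0.00075, and 0.41 matched). Il6, a cytokine downstream of IL-17, was at 6.30, 16.0, 2.66 and 3.46 CPM against 3.17, 5.80, 2.21 and 4.36 (1.09, edgeR adjusted p = 0.0034, 0.20 matched) and fell by 2.50 with no minimum (edgeR adjusted p = 0.0045). The receptor subunit Il17ra was 0.54 higher (edgeR adjusted p = 0.012) and at 0.12 matched. Summed over 18 macrophage genes the level was 3577 to 5739 CPM in Myh7-high and 2691 to 4816 CPM in Myh7-low spots. The part of these cells in the muscle and matrix differences was not tested.

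Genes also varied with Myh7 within the class. In ICI-alone replicate 2, raw CPM over Myh7-low spots and then over Myh7-high spots at 3000 to 5000, 5000 to 10000 and 10000 or more CPM of Myh7 were 66.7, 114, 143 and 370 for Casq1. Ankrd1 was at 10030, 9690, 11770 and 13700 CPM and Nppa at 1803, 7348, 8495 and 9910 over the same 4 groups, so in this section these genes were highest where Myh7 was highest. In ICI-alone replicate 1, Casq1 was at 137, 256 and 372 CPM and Nppa at 993, 3784 and 4793 over Myh7-low spots and the first pair of ranges, but Ankrd1 was at 10310, 16580 and 15690 CPM. Timp1 ran the other way within the class in ICI-alone replicate 2, at 110, 615, 339 and 144 CPM, and Col1a1 was at 1403, 4268, 3579 and 2676. Tnnt2 was at 17880, 15460, 16960 and 19180 CPM and the summed sarcomere list at 62730, 54250, 59100 and 68110, both highest where Myh7 was highest. Other muscle genes climbed within the class but stayed below Myh7-low spots. Tnni3 was at 4246, 3134, 3304 and 3642 CPM, and the summed calcium-handling list at 25130, 18920, 19910 and 21720. A median distance to the niche of 7, 7 and 5 steps, beside 9 in Myh7-low spots, put the richest spots closest to it in this section.

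The Myh6-rich and Myh6-poor members differed in what else they held. In ICI-alone replicate 2, the 376 Myh6-poor spots against the 428 Myh6-rich ones had Nppa at 11630 against 4057 CPM, Col1a1 at 5896 against 1482, Postn at 156 against 28.2, Timp1 at 764 against 106 and Dio3 at 58.9 against 5.30. Casq1 was at 139 against 168 and Ankrd1 at 11100 against 10770 CPM, nearly alike. ICI-alone replicate 1 gave the same order, with Nppa at 6770 in 29 Myh6-poor spots against 3059 in 108 Myh6-rich ones, Timp1 at 593 against 78.6 and Casq1 at 228 against 296. In antibody replicate 2, with 12 Myh6-poor and 25 Myh6-rich spots, Casq1 was at 177 against 540 CPM, Nppa at 2759 against 3236 and Col1a1 at 1229 against 546. Collagen I was thus higher in the Myh6-poor kind in these 3 sections and Nppa in the ICI-alone sections, while Casq1 was higher in the Myh6-rich kind in all 3. Antibody replicate 1 had 4 Myh6-poor spots, too few to sum. These are raw sums with no test.

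Within Myh7-high spots, the antibody sections were then compared with the ICI-alone sections. The comparison rests on few spots, 19 and 37 with 337131 and 512527 UMIs, against 137 and 804 with 3785253 and 13272661. A count of 0 allows up to 8.90 and 5.85 CPM in the antibody sums. Of 10951 genes 185 (1.69%) passed edgeR's test, 150 higher (1.37%) and 35 lower (0.32%) with the antibody, beside 6 of 14696 (0.0408%) in Myh7-low spots. This order of the counts did not hold under other fits, with 198 against 230 by DESeq2 and 348 against 507 with the replicate block. With no filter on low counts, 281 genes were higher and 234 lower in Myh7-high spots. Leaving out antibody replicate 2 left 2 calls (Cxcl10 and Ccl5), and Myh6 at 1% or more in all spots left 4 (Ecrg4, Fmod, Comp and Chad). These few genes are listed after their values were seen. Calls were thus lost without 1 section, and with the Myh6 minimum, which changed the kind of spots and left fewer per sum. The part of fewer spots in that loss was not tested.

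Among the genes that fell were S100a9, Lcn2, Serpina3n and Mt1. Of the neutrophil list, 5 of 13 genes could be tested and 2 of them fell (median -2.41). Of 15 tested IL-17 response genes 2 fell and 1 rose (median -1.09), beside 0.32% of all genes falling and 1.37% rising. Genes low with the antibody could pass the filter on low counts through the ICI-alone sums, so these counts and medians are a description. S100a9 was at 58.3 and 135 CPM under ICIs alone and 2.87 and 12.9 under the antibody (-3.47 ± 0.63, SE, n = 2 against 2, edgeR adjusted p = 0.021). The siderophore-binding protein Lcn2, a typical IL-17 target, was at 375 and 630 against 20.1 and 166 CPM (-2.32, edgeR adjusted p = 0.044). The antibody values rest on 1 and 7 UMIs for S100a9 and on 7 and 90 for Lcn2. Serpina3n, an acute phase protease inhibitor, was at 1646 and 2692 against 597 and 923 CPM (-1.51, edgeR adjusted p = 0.035), and metallothionein Mt1 at 1245 and 1554 against 344 and 616 (-1.53, edgeR adjusted p = 0.025). In none of these did the groups overlap. With all spots at 1% Myh6 or more the 4 genes were at -3.01, -3.00, -1.94 and -1.497 (S100a9, Lcn2, Serpina3n, Mt1), and none passed (edgeR adjusted p = 0.28, 0.074, 0.23 and 0.20). S100a9 fell in Myh7-low spots as well, by 2.77 (edgeR adjusted p = 0.026). Fcna, a ficolin of resident macrophages, had 393 UMIs with ICIs alone and 0 with the antibody, at least 6.53-fold lower against a floor of 3 counts over both antibody sums.

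Some muscle genes were lower as well. Fhl1 was at 1257 and 984 CPM under ICIs alone and 381 and 480 under the antibody (-1.37 ± 0.24, edgeR adjusted p = 0.018). Flnc was at 1051 and 838 against 445 and 403 (-1.16, edgeR adjusted p = 0.029), and Cav3, the caveolin of muscle, at 67.3 and 55.4 against 22.9 and 22.1 (-1.44, edgeR adjusted p = 0.032). With all spots at 1% Myh6 or more they were at -1.14, -0.81 and -1.71 and did not pass (edgeR adjusted p = 0.24, 0.43 and 0.24). Fhl1 and Flnc were lower with the antibody in Myh7-low spots too. Raw Fhl1 was there at 805 and 721 against 210 and 310 CPM, and Flnc was at -0.87 (edgeR adjusted p = 0.32). Of the 22 fetal and stress genes tested 1 rose and 2 fell, beside 1.37% of all genes rising and 0.32% falling. The 1 that rose was the atrial gene Myl7, resting on 5 and 7 UMIs in the antibody sums. Acta1 (4135 and 1347 against 2831 and 1584 CPM, edgeR adjusted p = 0.82) and Ankrd1 (17440 and 11260 against 6951 and 14550 CPM, edgeR adjusted p = 0.73) overlapped between groups, and Atp2a2 did too. Nppa was at 4212 and 8313 against 1833 and 2882 CPM and did not pass (-1.41, edgeR adjusted p = 0.096). Casq1, singled out after its values were seen, was at 298 and 157 against 514 and 381 CPM, higher with the antibody but not past the test (0.97, edgeR adjusted p = 0.14).

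Interferon and T cell genes were higher with the antibody. Of 17 tested T and NK cell genes 10 rose and 0 fell (median 2.31), and of 24 interferon gamma response genes 12 rose and 0 fell (median 1.24), beside 1.37% of all genes rising. The filter on low counts asks for a level in 2 sums only. Genes low with ICIs alone could thus enter through the antibody sums, so these counts and medians are a description. With all spots at 1% Myh6 or more, 6 and 23 genes of these lists were tested and none passed. Cxcl10 was at 3.30, Gbp2 at 1.89 and Cd274 at 2.37, about as large as before (edgeR adjusted p = 0.18, 0.24 and 0.24). Lck at 2.199 and Cd3e at 1.24 were smaller than before (edgeR adjusted p = 0.29 and 0.61). Raw Cd3e in the Myh6-rich antibody spots was 15.8 and 12.5 CPM, beside 9.38 and 12.95 in Myh7-low spots. The Myh6-poor spots of antibody replicate 2 had 83.3 CPM. In the full set of spots Cxcl10, an interferon-induced chemokine for T cells, was at 29.6 and 38.1 CPM under ICIs alone and 192 and 239 under the antibody (2.66 ± 0.21, edgeR adjusted p = 0.00032). The interferon-induced GTPase Gbp2 was at 290 and 222 against 812 and 918 CPM (1.76, edgeR adjusted p = 0.0047), and Cd274, which encodes PD-L1, at 72.9 and 41.0 against 244 and 342 (2.41, edgeR adjusted p = 0.0029). Cd3e was at 6.48 and 9.54 against 71.7 and 36.8 CPM, and the T cell kinase Lck at 7.88 and 6.44 against 40.2 and 73.6 (2.60 and 3.10, edgeR adjusted p = 0.0075 and 0.0020). The antibody values rest on 25 and 20 UMIs for Cd3e and on 14 and 40 for Lck. In Myh7-low spots Gbp2 was at 1.69 and Cd3e at 1.34, neither past the test (edgeR adjusted p = 0.22 and 0.17). The summed T and NK list was at 90.6 and 91.0 CPM under ICIs alone and 448 and 484 under the antibody in Myh7-high spots, and at 58.7 and 65.3 against 109 and 146 in Myh7-low spots.

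The cartilage-type matrix genes Comp and Chad, the latter chondroadherin, were at 1.41 and 8.76 against 77.5 and 107 CPM and at 0 and 2.17 against 51.6 and 16.6 CPM (3.87 and 4.29, edgeR adjusted p = 0.0042 and 0.018). Both also passed with all spots at 1% Myh6 or more (adjusted p = 0.00026 and 0.0029). Col1a1, in contrast, was at 1119 and 3936 against 809 and 756 CPM and did not pass (-1.69, edgeR adjusted p = 0.097). Between the groups Col1a1 was lower and Comp and Chad higher with the antibody. Within ICIs alone, however, replicate 2 had more of Col1a1, Comp and Chad than replicate 1. The antibody values of Comp rest on 27 and 58 UMIs from 19 and 37 spots.

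**Figure D5:**
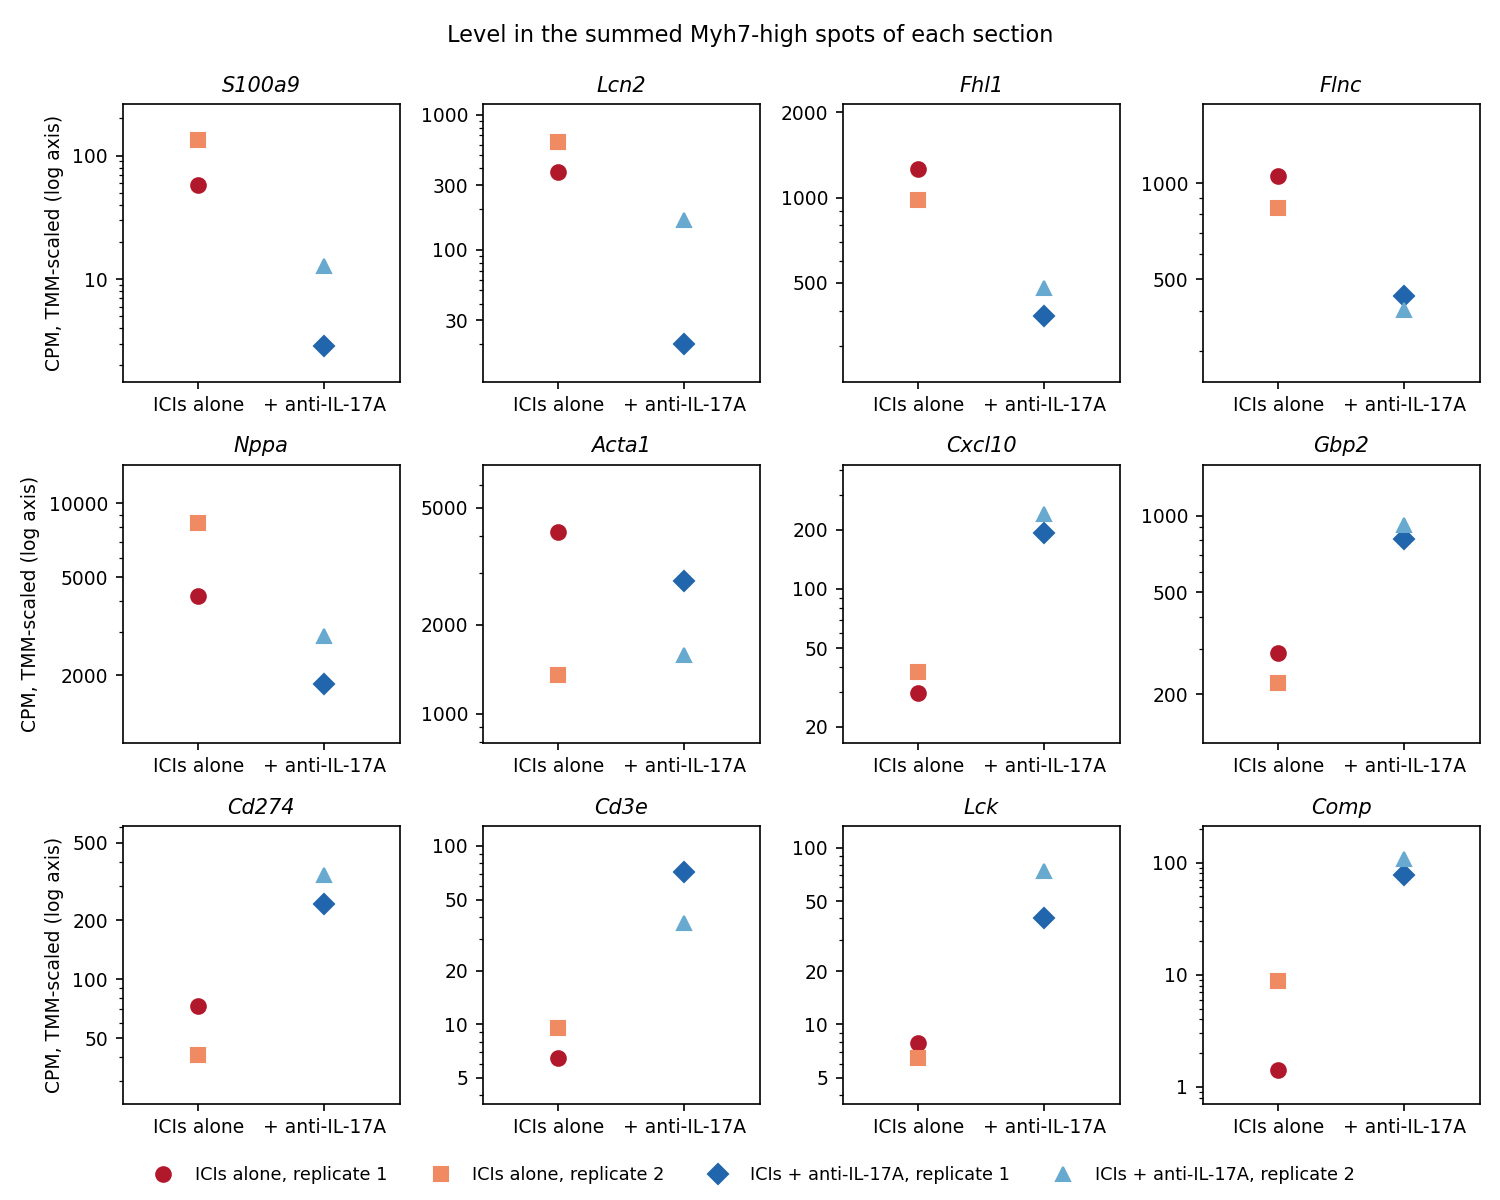
Level of 12 genes in the summed Myh7-high spots of each section (TMM-scaled CPM, log axis), ICIs alone against ICIs with the IL-17A antibody, 1 point per section. S100a9, Lcn2, Fhl1 and Flnc are lower and Cxcl10, Gbp2, Cd274, Cd3e, Lck and Comp higher with the antibody without overlap, and Acta1 overlaps.

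With batch as a replicate block, pairing section 1 with 1 and 2 with 2, 348 genes passed in Myh7-high and 507 in Myh7-low spots. Nppa (edgeR adjusted p = 0.00087), Casq1 (0.0055) and Col1a1 (0.016) passed the edgeR test then. The pairing comes from the batch numbers in the labels.

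Whether the class difference itself differed between treatments was tested as an interaction. It did for 403 of 13355 genes (3.02%), 124 with a positive interaction, where the log2 difference of Myh7-high minus Myh7-low spots was the more positive under the antibody, and 279 with a negative one. Among the positive ones were Comp and Thbs4, a thrombospondin of tendon and heart matrix, at 3.18 and 2.74 on the log2 scale (edgeR adjusted p = 4.9e-08 and 2.7e-05). Thbs4 was at 7.43 and 13.8 CPM in Myh7-high against 5.01 and 5.28 in Myh7-low spots with ICIs alone, and at 31.3 and 18.6 against 1.62 and 1.93 with the antibody. Mybpc2 was at 1.19 (edgeR adjusted p = 2.7e-08), being at 156 and 119 against 90.04 and 100.2 CPM with ICIs alone and at 141 and 144 against 38.3 and 47.4 with the antibody. The Myh7-high levels of Mybpc2 were alike in the 4 sections, and it was the Myh7-low levels that were lower with the antibody. All 3 passed with Myh6 matched too, at 4.86, 3.88 and 1.65.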

How the data were processed

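Visium libraries of 4 heart sections were used, 2 per treatment group, grouped by the treatment in the labels. The count matrices the authors deposited hold raw UMIs for each gene in each spot under tissue, and per the file headers came from Space Ranger 2.1.0. The submitters' processing notes name mm10 and Seurat 5.1.0. A further table the authors deposited gives a score for each gene, Moran's I, and a p-value not used here. Image scale factors were left out because no image was analysed.

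Members and gene lists were chosen with earlier results of these data known. Counts were summed per section and spot class, filtered with filterByExpr, TMM-scaled and tested with edgeR 4.0.16 (limma 3.58.1, R 4.3.3) at a Benjamini-Hochberg adjusted p of 0.05. Myh7, Myh6, Arg1 and Mmp12 were left out of the calls. Section was a block where classes were compared. CPM values differ slightly between comparisons because each was scaled on its own sums. Each standard error is the log2 difference over the root of its F value. Named genes are a panel of 48, the 12 largest rises and falls with 10 CPM or more and 1 direction in all sections or batches, and up to 3 genes per list. A gene that this rule picks is not reported here, though counts include it. Fits were tested on simulated data. Alternatives were DESeq2 1.42.0, other scalings, filters, thresholds and spot classes, and each section left out. Some were added after seeing the data: leaving out atrial-rich or margin spots, comparison spots without the Myh6 minimum, and Myh6 at 1% in all spots for the treatment and interaction tests.

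The batch numbers in the labels pair sections. Deviations of same-batch sections from their group means correlated at 0.0786 over 10955 genes in Myh7-high and 0.201 over 14700 genes in Myh7-low spots, across genes and not independent samples. Of 19465 genes, 19106 matched RefSeq symbols. Python 3.11.15 with numpy 2.4.6, pandas 2.3.3, scipy 1.17.1 and matplotlib 3.10.9 was used.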

Additional observations from a re-analysis of the deposited data

Results flagged for a closer look

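The difference between Myh7-high and Myh7-low spots differed with the IL-17A antibody for 403 genes by the edgeR interaction test, as a log2 difference of differences, antibody minus ICIs alone. Of 26 extracellular matrix genes 5 were positive and 21 not called (median 0.16), beside 3.02% of all genes called. Comp was at 3.18, Thbs4 at 2.74 and, from the fibroblast list (1 of 15 positive), Mgp, an inhibitor of calcification made by fibroblasts and vessels, at 0.93. Mybpc2 of the sarcomere was at 1.19, complement C3 at 1.01 and the acute phase gene Serpina3n at 1.00. For C3 the Myh7-high sums were alike, at 1321 and 1819 CPM under ICIs alone and 1793 and 1793 under the antibody, while the Myh7-low sums were 898.7 and 1608 against 536.5 and 873.8.

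Of 25 fat oxidation and 23 oxidative phosphorylation genes 8 and 17 were negative, but 0 and 1 with Myh6 matched and 3 and 2 by library size alone. Cox7a1 was at -0.60, the glycolytic gene Eno3 at -0.89 and the carnitine palmitoyltransferase Cpt1b at -0.69. The interferon-inducible GTPase Igtp was at -0.92 and the alternatively activated macrophage gene Retnla at -2.92. Retnla was at 46.9 and 6.77 CPM in the Myh7-high spots of the antibody sections against 199 and 172 in Myh7-low spots, resting on 18 and 4 UMIs. With Myh6 at 1% or more in both classes, Mgp (1.35), Eno3 (-0.76) and Retnla (-2.44) passed, and C3 (0.23, adjusted p = 0.76), Serpina3n (0.49, 0.33), Cox7a1 (-0.47, 0.26), Cpt1b (-0.55, 0.11) and Igtp (-0.32, 0.65) did not.

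Nppa at -1.40 and Myl4 at -6.39 moved with atrial-rich spots in the Myh7-low class of antibody replicate 2, where Myl4 was at 1456 CPM against 3.86 in antibody replicate 1. Without those spots Nppa was at 0.61 (edgeR adjusted p = 7.9e-08), a call in the opposite direction, and Myl4 at -0.59 (edgeR adjusted p = 0.68).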

How the results depend on the processing

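Over 82 gene values and their alternatives, 1401 comparisons were made: 1162 kept direction and side of the threshold, 189 lost the call, 19 gained it and 31 changed sign, and the causes were not tested. The class comparison (2354 genes) gave 6 calls with no section block, 3683 at 2000 CPM of Myh7, 698 at 5000 CPM, 80 with Myh6 at 1% in both classes, 1243 thinned to 5000 UMIs, 954 at low leukocyte share, 13 with no Myh6 minimum, and 1717 to 2068 with 1 section left out. Treatment within Myh7-high spots (185) gave 515 with no filter, 348 with the replicate block, 370 at 2000 CPM, 4 with Myh6 at 1% in all spots, and 2 to 209 with 1 section left out (2 without antibody replicate 2). It was not run at 5000 CPM, where the antibody sections had 2 and 5 spots. Within Myh7-low spots (6, with 1600 at an unadjusted p under 0.05) there were 230 with DESeq2, 37 with no filter, 507 with the replicate block, 196 to 576 with 1 section left out, and 0 by library size alone and with a 10 CPM filter. The interaction (403) gave 107 with DESeq2, 216 by library size, 88 with no filter, 217 with a 10 CPM filter, 52 with Myh6 at 1% in both classes, and 55 to 382 with 1 section left out. Library size alone moved the split of the interaction from 124 up and 279 down to 166 and 50, and of treatment in Myh7-high spots from 150 and 35 to 165 and 13, as the median of all genes moved by over 0.1.

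With no Myh6 minimum in the comparison spots these log2 differences changed sign: Gdf15 -0.53, Flnc -0.16, Tnni3 0.0301, Tnnt2 0.11, Atp2a2 0.0049, Ryr2 0.13, Pln 0.13, Scn4b 0.0164, Slc16a3 -1.19, Dio3 -1.68, Ltbp2 -0.70, Tnc -1.87, Col1a1 -0.0181, Timp1 -0.97, Cd3e -0.0361, S100a9 -1.39, Gbp2 -0.86, Cd68 -0.56, Il17ra -0.45, Il6 -2.50 and Cxcl5 -0.86. With Myh6 matched Gdf15 was at -0.0741 and S100a9 at -0.0745, and in the antibody sections alone Flnc was at -0.11, S100a9 at -0.15 and Il6 at -0.19. Under treatment Acta1 ranged from -0.89 to 0.72 with 1 section left out (0.72 without ICI-alone replicate 1) and was at 0.13 with Myh6 at 1% in all spots, and Ankrd1 ranged from -1.09 to 0.0114 (without antibody replicate 1). In the interaction Nppa ranged from -3.46 to 0.81 (without antibody replicate 2) and was at 0.61 without atrial-rich spots. The share of Myh7-high spots (14.8 percentage points higher with ICIs alone) ranged from 4.39 to 25.3 and the distance to the niche (-1.32 steps) from -1.58 to -1.06 with 1 section left out, none with another direction. Depth limits the antibody sums, where 3 counts are 8.90 and 5.85 CPM.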

Other observations

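Gdf15, a stress cytokine of cardiomyocytes and macrophages, was at 115, 78.9, 58.5 and 133 CPM in Myh7-high spots (ICI-alone replicates, then antibody replicates) and 76.3, 33.4, 16.9 and 48.6 CPM in Myh7-low spots. It was higher in 4 of 4 sections (1.06 ± 0.13, edgeR adjusted p = 9.6e-06), but with Myh6 matched it was at -0.07.

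The invariant chain Cd74, which guides antigen presentation, was at 4165, 4448, 5127 and 7746 CPM against 2711, 3198, 2439 and 3562 (0.82, edgeR adjusted p = 0.00010), and at 0.32 with Myh6 matched. The neutrophil chemokine Cxcl5, an IL-17 target, was at 67.7, 175, 21.3 and 79.6 CPM against 35.5, 52.6, 11.2 and 29.4 (1.35, edgeR adjusted p = 2.8e-07), and at 0.34 matched. Both were higher in every section, with no call once Myh6 was matched.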
